A study of Cricetulus griseus with 9 samples.

Results

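ATP synthase, the mitochondrial complex that makes ATP, was followed through the transcripts of its subunits and of its inhibitor Atpif1 in CHO-K1 cells given microRNA-29 precursors or a microRNA-29 inhibitor. The gene list was chosen with earlier results of these data known. It held 10 mouse Ensembl identifiers, paired with the names Atp5g1, Atp5g2, Atp5g3, Atpif1, Atp5a1, Atp5b, Atp5c1, Atp5f1, Atp5h and Atp5o. Of these, 9 were analysed, 8 subunit genes and Atpif1, among the 15557 genes of the expression table. Atp5h is not analysed here. Its models are identical to those of another listed identifier, ENSMUSG00000068706, which is left out of the counts below. The groups overlapped for that identifier, as given in the last section. All 9 passed the filter for testing, which asked for 1 FPKM or more on average across the libraries, and 9504 genes passed in all. FPKM are reads per kilobase of gene model, scaled to library size. The lowest value of any of the 9 genes was 220.7 FPKM, so none passed through 1 group alone.

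CHO-K1 is a cell line from Chinese hamster ovary. Cells were transfected for 48 h by the lipid reagent Lipofectamine RNAiMAX. The molecule was pre-miR-29b-1 in 1 group, pre-miR-29a in another and anti-miR-29a in the third, with 3 libraries per group. A pre-miR is a synthetic precursor that adds to the named microRNA, and the anti-miR is an inhibitor that the submitters describe as blocking both miR-29a and miR-29b-1. Neither untreated nor control-transfected cells were analysed here, so a fall with a pre-miR and a rise with the anti-miR cannot be told apart. The series text speaks of separate experiments and does not say whether each held every molecule. If an experiment held a single molecule, experiment and group cannot be told apart. Both comparisons with anti-miR-29a use the same anti-miR-29a libraries.

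ATP synthase joins a catalytic head in the mitochondrial matrix to a ring in the inner membrane. Protons that pass the membrane turn the ring and its central stalk, and the turning stalk drives ATP synthesis in the head, while a peripheral stalk holds the head still. Atpif1 binds the head and stops it from running backwards and consuming ATP when the proton gradient is lost. MicroRNAs of the miR-29 family have a seed in common, the stretch that pairs with target mRNAs, and act by reducing the amount or the translation of these mRNAs.

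The values implied between 15890000 and 21860000 reads per library, as read from the steps in which low values fall. These are the numbers the values were divided by. No library scaling is stated, so they may differ from the reads a library held. Pre-miR-29a replicate 1 stood apart. Its median absolute log2 deviation from the other libraries of its group was 0.140, against 0.0524 to 0.111 in the other 8 libraries, and limma gave it a weight of 0.213. It lay below the mean of the other pre-miR-29a libraries for 8 of the 9 genes, by 0.26 on the log2 scale on average over the 9. Pre-miR-29a replicate 2 had the next highest deviation, 0.111, and a weight of 0.429. It lay above the mean of the other pre-miR-29a libraries for all 9 genes, by 0.18 on average. Pre-miR-29a replicate 3 had a weight of 3.54, so results with these array weights rest mainly on that library in this group. Whether the replicate libraries are separate cultures is not stated, so the p-values rest on a spread that may be technical. In bulk RNA, less transcript in every cell and fewer cells that make it cannot be told apart.

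Most of the 8 subunit genes analysed were lower after a pre-miR than in the anti-miR-29a libraries, while Atpif1 did not pass the test. Here and below, fell and rose mean lower and higher than after anti-miR-29a, and do not say which group moved. After pre-miR-29b-1, 7 of the 9 genes fell and 0 rose (limma, Benjamini-Hochberg over 9504 genes, threshold 0.05). Over all tested genes 29.4% fell, 25.8% rose and 55.2% changed in either direction. After pre-miR-29a, 5 of the 9 fell and 0 rose, beside 30.9% of all tested genes that fell, 27.5% that rose and 58.4% that changed. The genes that fell with both were Atp5a1, Atp5c1, Atp5f1, Atp5g1 and Atp5g3. Atp5g1, Atp5g2 and Atp5g3 all code for subunit c and share parts of their gene models, as described below, so they do not count as separate members. The median log2 fold change of the 9 genes was -0.52 with either pre-miR, and that of all tested genes was -0.01 after pre-miR-29b-1 and -0.02 after pre-miR-29a. A fall of at least 1.5-fold was called for 4 of the 9 genes with either pre-miR, beside 10.3% of tested genes after pre-miR-29b-1 and 12.1% after pre-miR-29a. A fall of at least 2-fold was called for 1 gene, Atp5f1, with either, beside 3.45% and 4.26% of tested genes in that order. The libraries did not overlap with those of anti-miR-29a for 8 of the 9 genes after pre-miR-29b-1, beside 67.6% of all tested genes, and for 6 of the 9 after pre-miR-29a, beside 62.2%.

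**Figure D1:**
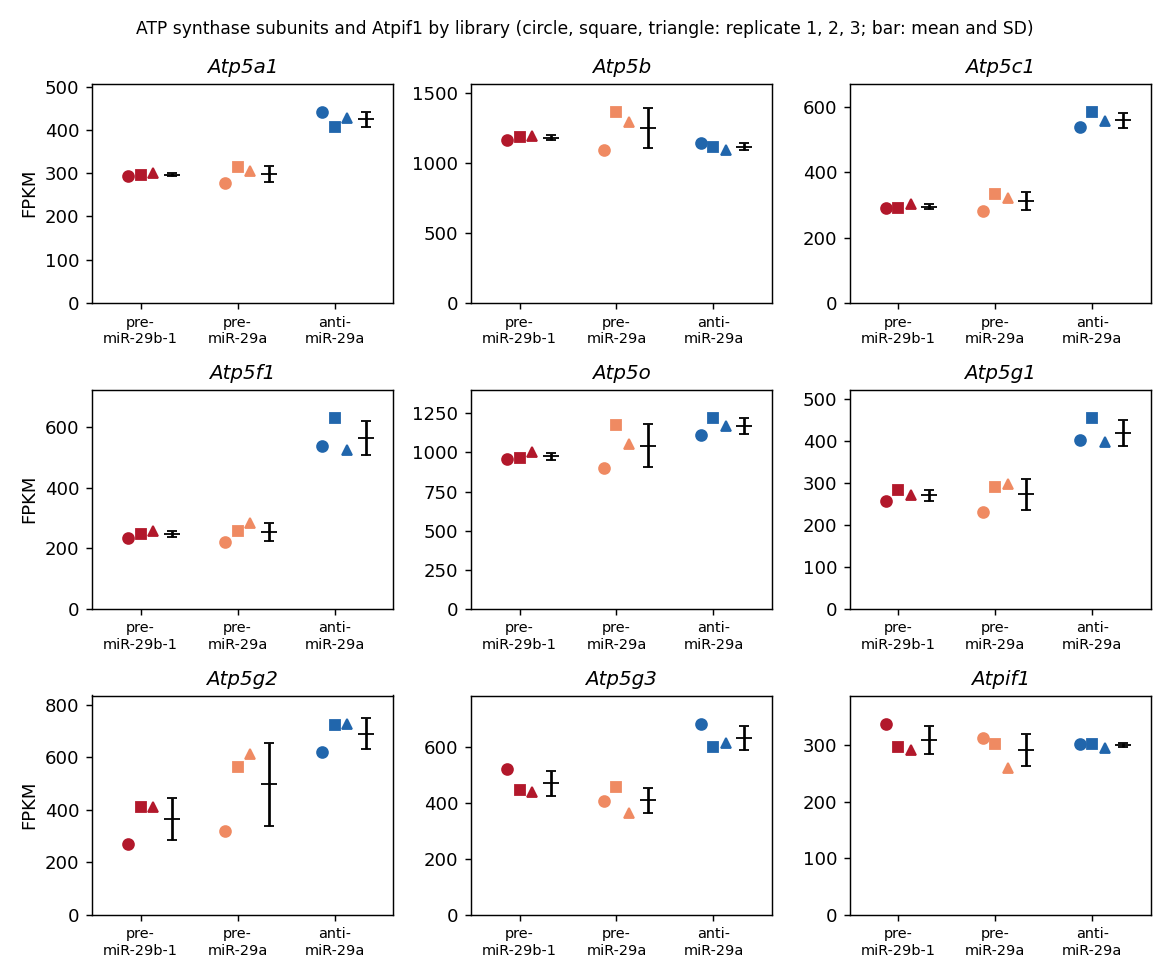
FPKM of each gene (vertical axis, from 0) in the 3 libraries of each group, with the mean and SD (n = 3) beside them. For Atp5c1 and Atp5f1 all pre-miR libraries lie below all anti-miR-29a libraries, while the groups overlap for Atpif1.

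Atp5f1 had the largest fold change of the 9 genes in both comparisons with anti-miR-29a. Atp5f1 (ENSMUSG00000000563) codes for subunit b, the main rod of the peripheral stalk. Its level was 234.9, 247.8 and 255.5 FPKM after pre-miR-29b-1, 220.7, 257.6 and 282.7 FPKM after pre-miR-29a, and 538.1, 629.4 and 524.4 FPKM after anti-miR-29a. The highest pre-miR library, at 282.7 FPKM, was far below the lowest anti-miR-29a library, at 524.4 FPKM. The mean after pre-miR-29b-1 was 0.436 times that after anti-miR-29a, a log2 fold change of -1.19 (SE 0.096, adjusted p = 5.02e-06, limma). After pre-miR-29a the ratio was 0.450 and the log2 fold change -1.15 (SE 0.096, adjusted p = 5.3e-06, limma). Among all tested genes, 2.16% had a lower log2 fold change than Atp5f1 after pre-miR-29b-1 and 3.11% after pre-miR-29a.

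Atp5c1 (ENSMUSG00000025781) codes for subunit gamma, the shaft of the central stalk. Its level was 291.4, 290.4 and 303.8 FPKM after pre-miR-29b-1, 282.9, 334.3 and 322.2 FPKM after pre-miR-29a, and 538.3, 584.7 and 558.2 FPKM after anti-miR-29a. Neither pre-miR group overlapped with anti-miR-29a. The log2 fold change was -0.92 after pre-miR-29b-1 (SE 0.066, adjusted p = 2.34e-06, limma) and -0.84 after pre-miR-29a (SE 0.066, adjusted p = 3.68e-06, limma).

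In the head, where subunits alpha and beta stand in equal numbers, the gene for alpha fell and that for beta did not pass the test. Atp5a1 (ENSMUSG00000025428) codes for alpha, the non-catalytic partner. It stood at 293.3, 295.8 and 300.6 FPKM after pre-miR-29b-1, 277.8, 314.0 and 305.2 FPKM after pre-miR-29a, and 441.2, 406.1 and 427.7 FPKM after anti-miR-29a. Every pre-miR library was below every anti-miR-29a library. The log2 fold changes were -0.52 after pre-miR-29b-1 (SE 0.056, adjusted p = 3.9e-05, limma) and -0.51 after pre-miR-29a (SE 0.056, adjusted p = 3.89e-05, limma).

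Atp5b (ENSMUSG00000025393) codes for beta, the catalytic subunit, and was the most abundant of the 9 genes with either pre-miR. It stood at 1162, 1188 and 1193 FPKM after pre-miR-29b-1, 1095, 1364 and 1293 FPKM after pre-miR-29a, and 1142, 1118 and 1092 FPKM after anti-miR-29a. The pre-miR-29b-1 libraries all lay a little above the anti-miR-29a libraries, while pre-miR-29a replicate 1 lay among them. The log2 fold changes were 0.08 after pre-miR-29b-1 (95% interval -0.09 to 0.25, adjusted p = 0.409, limma) and 0.16 after pre-miR-29a (95% interval -0.02 to 0.33, adjusted p = 0.111, limma). Quantile normalization made both calls, at 0.19 after pre-miR-29b-1 (adjusted p = 0.0194, limma) and 0.23 after pre-miR-29a (adjusted p = 0.00647, limma). After pre-miR-29a, leaving out replicate 1 of that group gave 0.25 (adjusted p = 0.00178, limma), leaving out its replicate 2 gave 0.09 (adjusted p = 0.319, limma), and array weights, which count uneven libraries less, gave 0.22 (adjusted p = 0.00106, limma).

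Set against each other within a library, which cancels library scaling, Atp5b stood at 3.96, 4.02 and 3.97 times the FPKM of Atp5a1 after pre-miR-29b-1. The ratio was 3.94, 4.35 and 4.24 after pre-miR-29a and 2.59, 2.75 and 2.55 after anti-miR-29a, without overlap between either pre-miR and anti-miR-29a. The ratio of Atp5b to Atp5c1 was 3.99, 4.09 and 3.93 after pre-miR-29b-1, 3.87, 4.08 and 4.01 after pre-miR-29a, and 2.12, 1.91 and 1.96 after anti-miR-29a, again without overlap between either pre-miR and anti-miR-29a. Atp5b itself did not pass the test, so these ratios mostly restate the lower Atp5a1 and Atp5c1 levels. Such ratios were not taken for genes outside the list, so they are not shown to be particular to these genes. They are given with no test.

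Atp5o (ENSMUSG00000022956) codes for OSCP, the subunit that ties the peripheral stalk to the top of the head. It stood at 955.6, 967.3 and 1001 FPKM after pre-miR-29b-1, 900.2, 1173 and 1052 FPKM after pre-miR-29a, and 1114, 1219 and 1170 FPKM after anti-miR-29a. The pre-miR-29b-1 libraries lay below the anti-miR-29a libraries, and pre-miR-29a replicate 2 lay among them. The log2 fold change was -0.26 after pre-miR-29b-1 (SE 0.089, adjusted p = 0.0305, limma) and -0.17 after pre-miR-29a (95% interval -0.37 to 0.03, adjusted p = 0.121, limma).

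The Atp5o call was near its threshold. After pre-miR-29b-1 it ended without a filter (adjusted p = 0.0533, limma) and without moderation (adjusted p = 0.0676, limma), and with quantile normalization it held at -0.16 (adjusted p = 0.017, limma). It also ended when pre-miR-29b-1 replicate 1, 2 or 3 or anti-miR-29a replicate 2 or 3 was left out, with a log2 fold change of -0.29 to -0.23 over all libraries left out in turn (adjusted p 0.00369 to 0.0954, limma). After pre-miR-29a the value was -0.07 without pre-miR-29a replicate 1 (adjusted p = 0.347, limma). A call appeared without pre-miR-29a replicate 2, at -0.26 (adjusted p = 0.0172, limma), with quantile normalization, at -0.13 (adjusted p = 0.0419, limma), and with array weights, at -0.15 (adjusted p = 0.0221, limma).

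Subunit c, which forms the membrane ring, is coded by Atp5g1 (ENSMUSG00000006057), Atp5g2 (ENSMUSG00000062683) and Atp5g3 (ENSMUSG00000018770). Their products differ in the import sequence that is cut off and give the same mature protein. The gene models do not keep these genes apart. The models are mouse proteins aligned to the hamster assembly CriGri_1.0, and a 4-exon locus on scaffold JH000760, from 375746 to 381975 on the plus strand, carries the longer model of Atp5g2. The last exons of that locus, from 379026 to 381978, also carry identical 2-exon models of Atp5g1 and Atp5g3. A second 4-exon locus, on JH000109 from 2284333 to 2286654, plus strand, carries the longer model of Atp5g3 and a 2-exon model of Atp5g2. The other model of Atp5g1 is a single unbroken exon of 408 bases on JH000476, from 630004 to 630411 on the minus strand, and holds all of its own bases. Bases shared with another gene made up 38.7% of the Atp5g1 models, 73.3% of those of Atp5g2 and 75.3% of those of Atp5g3, so reads could be split between the genes and a level for one of them is uncertain.

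**Figure D2:**
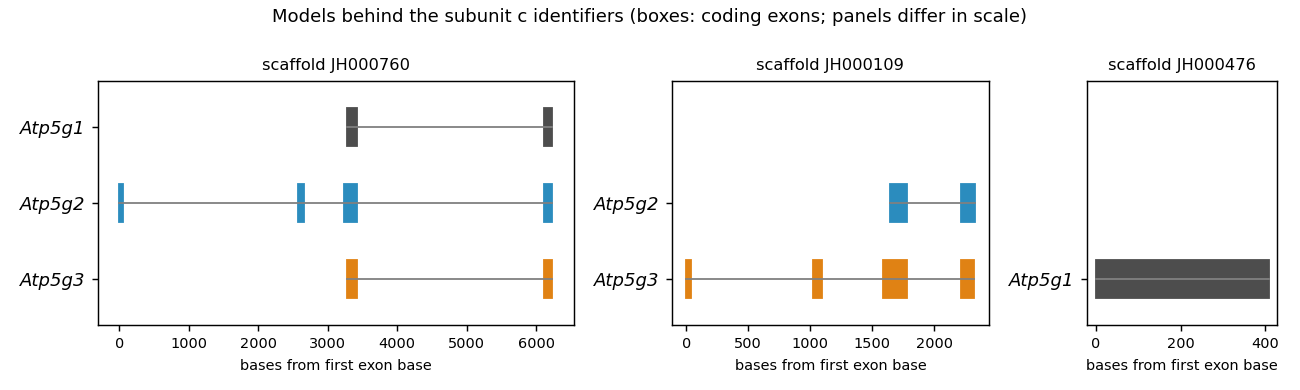
Coding exons (boxes) of the models that carry the subunit c identifiers, by scaffold, against the distance in bases from the first exon base of each locus. Atp5g1 has 2 exons inside the Atp5g2 locus, identical to those of Atp5g3, and a single exon elsewhere.

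Listed under Atp5g1 were 256.4, 282.3 and 271.1 FPKM after pre-miR-29b-1, 230.9, 288.8 and 298.0 FPKM after pre-miR-29a, and 402.6, 453.5 and 396.8 FPKM after anti-miR-29a. Every pre-miR library was below every anti-miR-29a library. The log2 fold change was -0.63 after pre-miR-29b-1 (SE 0.095, adjusted p = 0.000358, limma) and -0.62 after pre-miR-29a (SE 0.095, adjusted p = 0.000334, limma). Among all tested genes, 9.46% had a lower log2 fold change after pre-miR-29b-1 and 11.6% after pre-miR-29a.

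Atp5g3 stood at 521.4, 447.1 and 437.7 FPKM after pre-miR-29b-1, 405.8, 454.7 and 364.9 FPKM after pre-miR-29a, and 680.5, 598.6 and 614.6 FPKM after anti-miR-29a. Again the pre-miR libraries all lay below the anti-miR-29a libraries, at a log2 fold change of -0.43 after pre-miR-29b-1 (SE 0.094, adjusted p = 0.00335, limma) and -0.63 after pre-miR-29a (SE 0.094, adjusted p = 0.000284, limma).

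Atp5g2 was the least even of the 9 genes within either pre-miR group, though not after anti-miR-29a. It stood at 271.0, 410.2 and 413.0 FPKM after pre-miR-29b-1, 318.6, 561.8 and 614.1 FPKM after pre-miR-29a, and 622.4, 722.5 and 727.3 FPKM after anti-miR-29a. Replicate 1 was the lowest library of each group, and the highest pre-miR-29a library, at 614.1 FPKM, lay just below the lowest anti-miR-29a library. The log2 fold change was -0.94 after pre-miR-29b-1 (SE 0.24, adjusted p = 0.0071, limma). After pre-miR-29a it was -0.52 (95% interval -1.05 to 0.01, adjusted p = 0.0823, limma), and it depended on single libraries. It was -0.23 without pre-miR-29a replicate 1 (adjusted p = 0.267, limma) and -0.26 with array weights (adjusted p = 0.136, limma), and it passed the threshold without pre-miR-29a replicate 3, at -0.70 (adjusted p = 0.0386, limma).

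Summed over the genes, which depends less on how reads were split among them, subunit c stood at 1049, 1140 and 1122 FPKM after pre-miR-29b-1. The sums were 955.4, 1305 and 1277 FPKM after pre-miR-29a and 1706, 1775 and 1739 FPKM after anti-miR-29a. The pre-miR sums were all below the anti-miR-29a sums, and the mean was 0.634 times that of anti-miR-29a after pre-miR-29b-1 and 0.678 times after pre-miR-29a. The share listed under Atp5g1 was 24.5% ± 0.30 after pre-miR-29b-1, 23.2% ± 1.03 after pre-miR-29a and 24.0% ± 1.41 after anti-miR-29a (SD, n = 3 each), and the groups overlapped. The share under Atp5g2 ranged from 25.8% to 36.8% after pre-miR-29b-1, from 33.3% to 48.1% after pre-miR-29a and from 36.5% to 41.8% after anti-miR-29a.

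**Figure D3:**
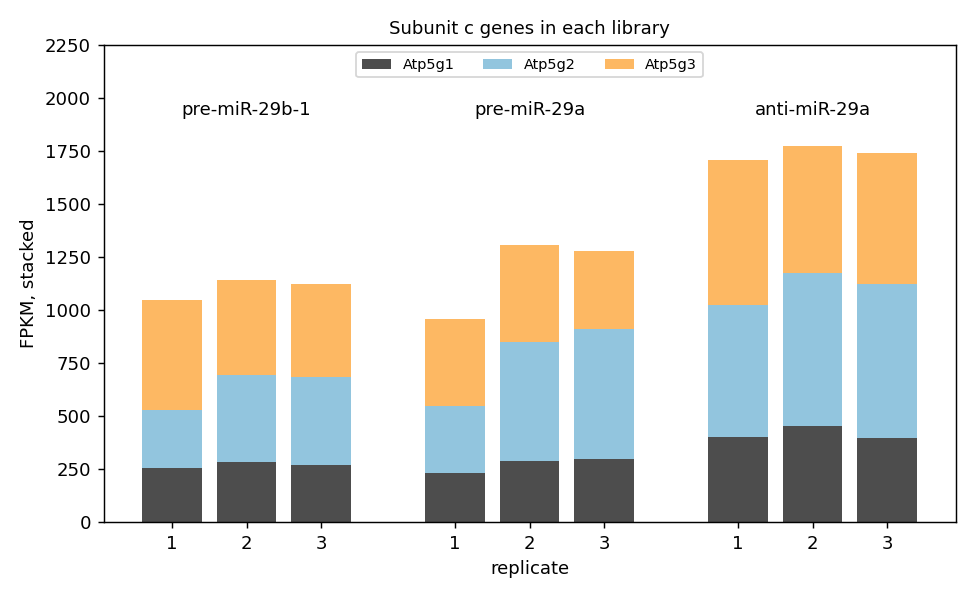
FPKM listed under Atp5g1, Atp5g2 and Atp5g3, stacked for each library (vertical axis, from 0). The pre-miR stacks reach 955.4 to 1305 FPKM and the anti-miR-29a stacks 1706 to 1775 FPKM, while the part of Atp5g1 stays between 22.1% and 25.6% of each stack.

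Atpif1 (ENSMUSG00000054428), the inhibitor, did not pass the threshold in either comparison. It stood at 336.8, 297.1 and 291.6 FPKM after pre-miR-29b-1, 312.1, 302.1 and 258.9 FPKM after pre-miR-29a, and 302.5, 302.3 and 295.0 FPKM after anti-miR-29a, so that the groups overlapped. The log2 fold change was 0.04 after pre-miR-29b-1 (95% interval -0.14 to 0.21, adjusted p = 0.703, limma) and -0.05 after pre-miR-29a (95% interval -0.22 to 0.13, adjusted p = 0.620, limma). With array weights, which in the pre-miR-29a group rest mainly on replicate 3, that of pre-miR-29a was called, at -0.16 (adjusted p = 0.0282, limma). That library had the lowest Atpif1 value of its group, 258.9 FPKM. Among all tested genes, 55.2% had a lower log2 fold change after pre-miR-29b-1 and 46.5% after pre-miR-29a, which puts Atpif1 near the middle.

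**Figure D4:**
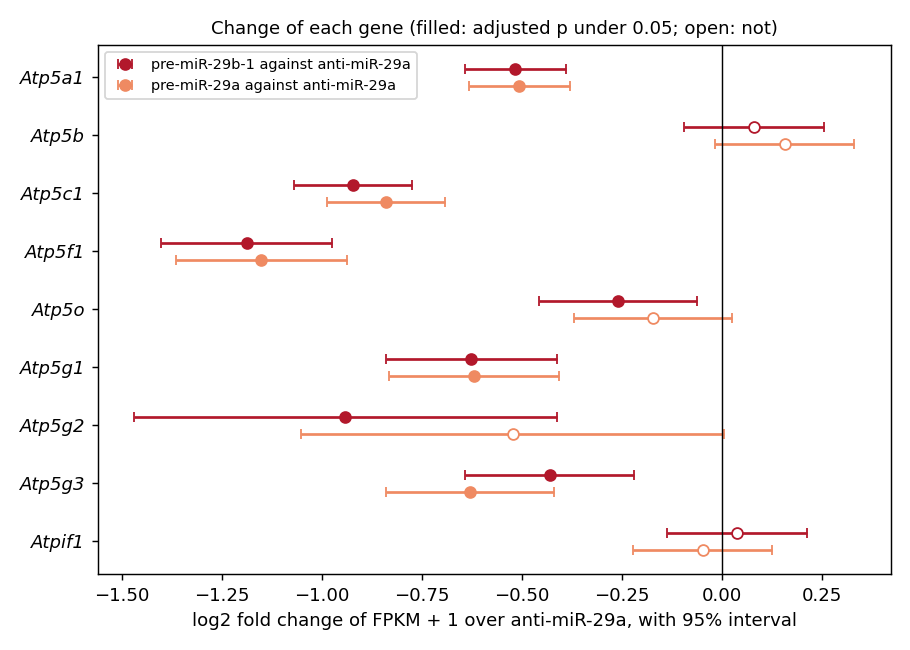
Log2 fold change of FPKM + 1 over anti-miR-29a for each gene (horizontal axis), with its 95% interval, for pre-miR-29b-1 (upper of each pair) and pre-miR-29a (lower). Filled points passed an adjusted p of 0.05. Atp5f1 lies lowest, at -1.19 and -1.15, and Atpif1 and Atp5b lie near 0 with open points.

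Atp5g1 and Atpif1 were each set against the mean log2 FPKM of the 7 subunit genes other than Atp5g1 in the same library. These include Atp5g2 and Atp5g3, which share model bases with Atp5g1, so Atp5g1 is not fully separate from that mean. Atp5g1 lay at -0.78, -0.71 and -0.79 after pre-miR-29b-1, -0.85, -0.86 and -0.76 after pre-miR-29a, and -0.76, -0.64 and -0.79 after anti-miR-29a. The groups overlapped, and the difference of means was -0.03 after pre-miR-29b-1 and -0.10 after pre-miR-29a. Against the median of the other subunits both differences turned sign, to 0.13 and 0.11, again with overlap, so no direction is given. Atpif1 lay at -0.38, -0.64 and -0.69 after pre-miR-29b-1, -0.42, -0.80 and -0.97 after pre-miR-29a, and -1.17, -1.23 and -1.22 after anti-miR-29a. Every pre-miR library was higher than every anti-miR-29a library, and the difference of means was 0.64 after pre-miR-29b-1 and 0.48 after pre-miR-29a. The log2 fold changes of Atpif1 itself were 0.04 and -0.05 in that order, so these differences mostly restate the lower subunit levels. The same quantity was not taken for genes outside the list, so it is not shown to be particular to Atpif1. The listed level of Atpif1 over that of Atp5f1 averaged 1.26 ± 0.16 after pre-miR-29b-1, 1.17 ± 0.25 after pre-miR-29a and 0.535 ± 0.047 after anti-miR-29a (SD, n = 3 each). Over Atp5b it averaged 0.261 ± 0.025, 0.236 ± 0.044 and 0.269 ± 0.0031 in the same groups, which overlapped. The level of Atpif1 rests on a model of only 315 bases, which was too short to give read numbers. The size of its ratios to other genes is thus uncertain. These quantities combine several members and carry no test.

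The order of levels changed with the group. Per effective coding length, Atp5b and Atp5o were the most abundant in every group, at means of 1181 and 974.8 FPKM after pre-miR-29b-1, 1251 and 1042 FPKM after pre-miR-29a, and 1117 and 1168 FPKM after anti-miR-29a. They did not overlap after pre-miR-29b-1 and overlapped in the other groups. Atp5f1 was the lowest after pre-miR-29b-1 and after pre-miR-29a, at 246.1 and 253.7 FPKM, and Atpif1 the lowest after anti-miR-29a, at 299.9 FPKM. After pre-miR-29b-1, Atp5g2, Atpif1, Atp5a1 and Atp5c1 followed one another with overlapping libraries, as did Atp5c1, Atp5a1, Atpif1, Atp5g1 and Atp5f1 after pre-miR-29a. After anti-miR-29a, Atpif1 stood clear below Atp5g1, its nearest neighbour. This order rests on effective lengths, which are less certain for the short Atpif1 model. Atp5o and the subunit c genes have shared models, so their place is uncertain too. All 9 were abundant transcripts, above 92.9% to 98.5% of the tested genes by mean level.

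**Figure D5:**
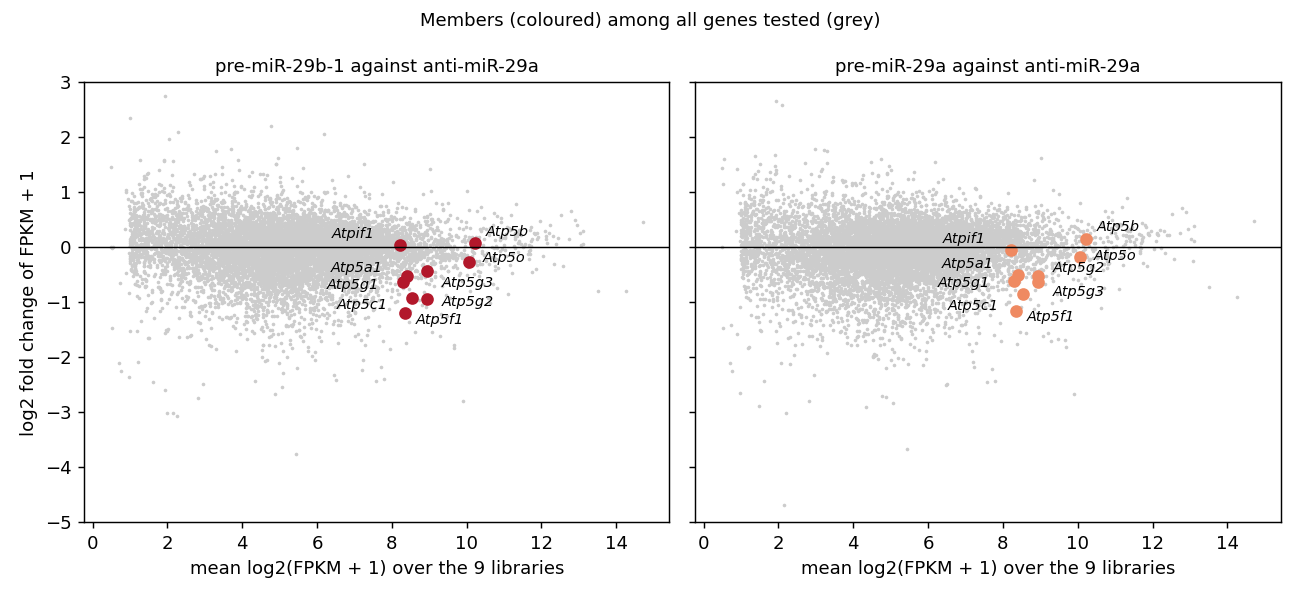
Log2 fold change of FPKM + 1 over anti-miR-29a (vertical axis) against mean log2(FPKM + 1) over the 9 libraries (horizontal axis) for all 9504 tested genes, with the 9 members coloured and named. The members lie at the right, among abundant genes, with Atp5f1, Atp5c1 and Atp5g2 lowest in the left panel.

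Between the pre-miRs, 0 of the 9 genes differed at an adjusted p of 0.05 (limma), and 0 at an unadjusted p of 0.05, where 0.0105% and 16.5% of all tested genes did. The 95% interval of the log2 difference, pre-miR-29b-1 less pre-miR-29a, ran from -0.14 to 0.12 for Atp5a1, from -0.25 to 0.18 for Atp5f1 and from -0.22 to 0.21 for Atp5g1. For Atpif1 it ran from -0.09 to 0.26, and for Atp5g2, the widest, from -0.95 to 0.11. The count rested on pre-miR-29a replicate 1. Without it, 2 genes were lower after pre-miR-29b-1, Atp5g2 at -0.71 (adjusted p = 0.0346, limma) and Atp5b at -0.17 (adjusted p = 0.0477, limma), where 14.5% of all tested genes differed. With array weights 5 of the 9 differed, Atp5g3 and Atpif1 higher after pre-miR-29b-1 and Atp5g2, Atp5b and Atp5c1 lower, where 38.2% of all tested genes did. The libraries of the pre-miR groups overlapped for all 9 genes, whereas those of 18.9% of all tested genes did not overlap.

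Atpif1, Atp5a1, Atp5b, Atp5c1 and Atp5f1 each had 1 model with no base shared with another gene, and 3 of these 5 fell with either pre-miR, beside the 29.4% of all tested genes that fell after pre-miR-29b-1 and the 30.9% after pre-miR-29a. On CriGri_1.0, Atp5f1 lies on JH002962 from 32114 to 44757, on the minus strand in 6 coding exons, and Atp5c1 on JH000001 from 2056606 to 2073685, minus strand, with 8. Atp5a1 lies on JH000249 from 1592325 to 1599403, plus strand, with 12 coding exons, and Atp5b on JH000638 from 171514 to 178681, plus strand, with 10. Atpif1 lies on JH000110 from 2405776 to 2408907, minus strand, with 3. Atp5o, on JH000016 from 4549961 to 4555373, minus strand, has 6 coding exons, and all of its 606 coding bases are shared with an identical model of 1 other identifier, which is not analysed here.

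For Atp5a1, Atp5b, Atp5c1, Atp5f1 and Atp5o, between 2306 and 38273 implied reads lay behind a library's value. All bases of Atp5o are shared with another identifier, so its read numbers and counting error are less certain. Counting error from these reads alone was 0.539% to 1.98% of the mean, while the spread between libraries of a group was 1.25% to 13.1%. In Atp5b the spread was 1.43% after pre-miR-29b-1, 11.2% after pre-miR-29a and 2.22% after anti-miR-29a.

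Over the 9 libraries, the genes most like Atp5g1 by Pearson's r of log2(FPKM + 1) were ENSMUSG00000024132 (r = 0.995) and ENSMUSG00000027079 (r = 0.992), which the files do not name. ENSMUSG00000024132 averaged 60.8 ± 2.70 FPKM after pre-miR-29b-1, 61.3 ± 4.65 FPKM after pre-miR-29a and 77.8 ± 2.42 FPKM after anti-miR-29a (SD, n = 3 each). Among the members the closest was Atp5f1 (r = 0.982), ahead of Atp5c1 (0.970) and Atp5a1 (0.949). Among all tested genes these ranked only 18, 91 and 330, so many genes outside the list were as like Atp5g1. Atp5g2 (r = 0.85, rank 1585) and Atp5g3 (r = 0.78, rank 2230), which share model bases with Atp5g1, lay further off, and Atp5b had r = -0.28. For Atpif1 the closest gene was ENSMUSG00000020156 (r = 0.964), at 55.8 ± 2.98 FPKM after pre-miR-29b-1, 54.5 ± 3.48 FPKM after pre-miR-29a and 55.4 ± 0.41 FPKM after anti-miR-29a (SD, n = 3 each). The next was ENSMUSG00000090737 (r = 0.939). The highest r of Atpif1 with another member was 0.409, with Atp5g3. These values describe 9 points that fall into treatment groups and share library scaling, and carry no test.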

How the data were processed

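RNA from 9 libraries of CHO-K1 cells was analysed, 3 for each transfected molecule. Per the labels' protocols, mRNA libraries that keep strand were sequenced in single reads on a NextSeq500. The authors deposited FPKM per gene and library. The submitters' processing notes name FastQC, TopHat2 2.0.13 and Cuffnorm, with no library scaling or strand setting stated. Gene models, deposited by the authors as exon coordinates, came from mouse Ensembl proteins placed on CriGri_1.0, per the file headers, and hold coding bases alone.

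The 10 identifiers with their names, the lists and the tests were chosen with earlier results of these data known. Neither the files nor a RefSeq table of 32251 hamster genes pairs other identifiers with names (0 matches), so a planned list of further ATP synthase genes was not tested.

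In 10229 genes with 1 unshared model of at least 320 bases, FPKM times an effective length, for fragments of 200 ± 80 bases, fell in whole reads. Within 0.2 reads of a whole number were 99.8% to 100% of values up to 5 reads. The step gave the implied reads, in the unit Cuffnorm divided by. Read numbers are not given for Atpif1, whose model is shorter, or for subunit c genes with several distinct models.

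Tests ran in limma 3.58.1 (R 4.3.3) on log2(FPKM + 1), with a variance trend and all 9 libraries in 1 fit. P-values were two-sided and adjusted by Benjamini-Hochberg per comparison. Fold changes and intervals are on that scale. All members are named, and for likeness the 2 genes with the highest r. Alternatives changed the pseudocount, filter, scaling, variance model, array weights, groups in the fit and replicate block, or left out 1 library.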

Additional observations from a re-analysis of the deposited data

How the results depend on the processing

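Of the 9 genes, 7 were called after pre-miR-29b-1 in the comparison with anti-miR-29a, and this became 6 to 8 under the 10 settings tried and 6 to 7 with 1 library left out. The 5 called after pre-miR-29a became 5 to 7, but 8 with array weights (1 higher, 7 lower, where 71.4% of all tested genes changed), and 5 to 6 with 1 library left out. Between the pre-miRs 0 became 5 with array weights and 0 to 2 with 1 library left out, the 2 without pre-miR-29a replicate 1. The causes were not tested. Atp5a1, Atp5c1, Atp5f1, Atp5g1 and Atp5g3 were called lower after either pre-miR under every alternative run. Log2 values that changed sign were close to 0. Between the pre-miRs, quantile normalization gave 0.031 for Atp5g1, 0.053 for Atp5a1 and 0.011 for Atp5f1. With 1 library left out, the ranges were -0.12 to 0.062 for Atp5g1, -0.062 to 0.026 for Atp5a1, -0.13 to 0.044 for Atp5f1 and -0.19 to 0.0024 for Atp5o. Against anti-miR-29a, Atpif1 ranged from -0.027 to 0.077 after pre-miR-29b-1 and from -0.10 to 0.034 after pre-miR-29a. Against the median instead of the mean of the other subunits, Atp5g1 lay at -0.45 after pre-miR-29b-1, -0.47 after pre-miR-29a and -0.58 after anti-miR-29a, and Atpif1 at -0.26, -0.37 and -1.05. This turned the sign of the Atp5g1 difference from anti-miR-29a, to 0.13 after pre-miR-29b-1 and 0.11 after pre-miR-29a. With the replicate number as a block, 7, 6 and 0 genes were called in the 3 comparisons, the added gene being Atp5g2 after pre-miR-29a (adjusted p = 0.00451, limma). Same-numbered libraries deviated together with r of -0.02 to 0.29, over 0.1 in 6 of 9 pairs, so the numbers were not taken as pairs. The planned list of further ATP synthase genes was not run.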

Other observations

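The models of Atp5h, the subunit d of the peripheral stalk, lie on JH000019 from 473048 to 476298, plus strand, with 5 coding exons, and are identical to models of ENSMUSG00000068706, which the expression table lists. That identifier stood at 1054, 1083 and 1142 FPKM after pre-miR-29b-1, 1042, 1347 and 1282 FPKM after pre-miR-29a, and 1081, 1281 and 1138 FPKM after anti-miR-29a, and the groups overlapped.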
